A study of Mus musculus with 6 samples.

Results

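Per2, Dbp and Hlf are genes of the circadian clock and its output, and all 3 had lower mRNA levels in fibroblasts on a scaffold than in the same cells on standard plates. Hlf went from 869 ± 72.3 to 273 ± 96.3 normalised reads (mean ± SD, n = 3 libraries each), Per2 from 191 ± 21.9 to 70.4 ± 15.2, and Dbp from 25.3 ± 6.07 to 10.6 ± 4.35. They were chosen by gene symbol from a table of 581 genes that the authors had selected as differentially expressed on these same 6 libraries, and all 3 symbols were found. The difference between the surfaces was therefore built into the choice, and it is given here as a description without a p-value.

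The cells were NIH-3T3, an immortalised mouse embryo fibroblast line labelled wild type and kept in DMEM with 10% fetal bovine serum at 5% CO2. The plate group had 3 libraries from cells on standard plates, and the scaffold group had 3 libraries from cells on the support named Nanopore #3, and the labels name no agent or allele that differed between them. The labels name neither the material of the scaffold nor the time in culture, the hour of harvest or the time since the last change of medium. Whether each library was a culture of its own is not stated either, so the SDs may be technical. Fewer cells expressing a gene and less RNA per cell cannot be told apart in such bulk libraries.

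The mammalian clock is a feedback loop in which the activators CLOCK and BMAL1 bind E-box sequences and switch on the Period and Cryptochrome genes, whose proteins then repress those activators. Per2 encodes a Period repressor, so it belongs to the loop itself as well as being a target of it. Dbp and Hlf encode transcription factors of the PAR bZIP family, which bind D-box sequences and carry the rhythm to further genes. Dbp is a direct target of CLOCK and BMAL1. Cultured fibroblasts, NIH-3T3 among them, hold such a clock, and a serum pulse sets the cells of a dish to a common phase.

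Over the 581 genes, the plate libraries held 264178 to 293198 reads, and scaffold replicates 1 and 2 held 288435 and 276519. For scaffold replicate 3 only the normalised values were used. Of 13 fibroblast markers, Col1a1 and Col1a2 were in the table, with plate means of 18208 and 38736 and scaffold means of 7400 and 18500. Of 24 markers of other cell types, 2 were in it, the keratin gene Krt8 and the tubulin gene Tubb3. Their summed level ran from 252 to 269 in the plate libraries and from 590 to 635 in the scaffold libraries. Krt8 had means of 14.7 on plates and 34.8 on the scaffold, so most of the sum was Tubb3. The table holds only genes selected on this contrast, so a difference in any marker found in it was given by the selection. The part of the marker differences in the values of the clock genes was not tested. Genes outside the table were not analysed here.

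Promoter windows were sought for all 3 genes and are shown for the PAR bZIP pair, Dbp and Hlf, since Per2 had none. The RefSeq table used here (GRCm38.p6) held a window, 250 bases before to 50 after the annotated start, for 2 of the 3 genes. That of Dbp lies at chr7:45704997-45705296 on the plus strand and that of Hlf at chr11:90390868-90391167 on the minus strand. The RefSeq start of Dbp lies 159 bases downstream of the start in the deposited table, and that of Hlf 22 bases upstream. Each is written 5′ to 3′ along its gene, with matches to the motifs named in the next paragraph in capitals.
Dbp: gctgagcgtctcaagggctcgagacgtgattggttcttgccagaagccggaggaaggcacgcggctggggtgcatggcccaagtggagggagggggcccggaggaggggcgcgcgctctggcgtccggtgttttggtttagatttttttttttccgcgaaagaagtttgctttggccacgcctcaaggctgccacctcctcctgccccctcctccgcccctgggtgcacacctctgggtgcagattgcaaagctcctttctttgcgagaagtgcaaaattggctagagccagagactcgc
Hlf: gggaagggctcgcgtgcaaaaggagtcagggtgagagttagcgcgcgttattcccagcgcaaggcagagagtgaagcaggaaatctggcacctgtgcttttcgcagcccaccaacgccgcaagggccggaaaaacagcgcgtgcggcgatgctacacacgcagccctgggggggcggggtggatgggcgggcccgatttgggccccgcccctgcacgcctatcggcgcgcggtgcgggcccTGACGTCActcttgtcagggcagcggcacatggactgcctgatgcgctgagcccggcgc

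The windows were searched on both strands for the E-box CACGTG, its variant CACGTT, the D-box TTATGTAA, the looser form TTATGNAA, the nuclear receptor motif AGGTCA, and the cAMP response element TGACGTCA with its short form TGACG. The Hlf window held the full cAMP response element, 9 to 2 bases before the annotated start, with the short form once on each strand inside it. Of all 32851 windows, 1.79% held that element, and 20.8% held the short form. Among the 472 windows of genes in the table, 2.75% held the full element. None of the 7 motifs matched in the Dbp window, and no E-box matched in that of Hlf. An E-box was present in 7.15% of all windows and a D-box in 0.938%. These matches describe the letters of short windows only. In base composition, 60.3% of the Dbp window and 67.3% of the Hlf window were G or C, against a median of 52.7% over all windows.

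Hlf (ENSMUSG00000003949, chromosome 11, 90336536 to 90390895, minus strand, GRCm38 coordinates) was the most abundant of the 3 genes. Its normalised read counts were 854, 806 and 948 in plate replicates 1 to 3. On the scaffold they were 377, 252 and 188. Every scaffold library lay below every plate library, and the lowest plate value was 2.14 times the highest scaffold value. The ratio of group means was 3.19, with a log2 fold change of -1.73 (SE 0.214) on the log2(value + 1) scale. Scaffold replicate 1 stood nearest to the plates. Without it the log2 fold change was -1.99, and without scaffold replicate 3 it was -1.49.

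The replicate spread of Hlf differed between the surfaces. Its coefficient of variation was 8.32% on plates and 35.3% on the scaffold. The scaffold SD was 5.83 times the SD that counting alone would give if a normalised read is taken as 1 read, and the plate SD was 2.45 times that SD. The counting interval of scaffold replicate 1 was 340 to 418 and that of scaffold replicate 2 was 221 to 286 (95%, exact Poisson, counting error only), so these 2 libraries of the same group differed by more than counting error. A wider scaffold spread was common among the 392 genes with lower values on the scaffold, whose median coefficient of variation was 14.3% on plates and 27.9% on the scaffold. In the 39 of them with a mean of 300 to 1000 normalised reads, the range that holds Hlf, the medians were 4.40% and 16.1%. Hlf thus lay above these medians on both surfaces. It was not the most variable on the scaffold, where Svep1, for example, had a mean of 299 with an SD of 190.

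Per2 (ENSMUSG00000055866, chromosome 1, 91415982 to 91459324, minus strand) was at an intermediate level. Plate replicates 1 to 3 had 194, 211 and 168 normalised reads of it, and scaffold replicates had 72.0, 84.7 and 54.4. The groups did not overlap, and the lowest plate value was 1.98 times the highest scaffold value. The ratio of means was 2.71 and the log2 fold change -1.44 (SE 0.189). Within the scaffold group, Per2 was highest in replicate 2, where Hlf and Dbp were highest in replicate 1. The counting intervals of Per2 in scaffold replicates 1 and 2 overlapped, at 56.1 to 90.9 and 67.2 to 105, so their order is within counting error. The SD of Per2 was 1.59 times the counting SD on plates and 1.81 times on the scaffold, so counting error made up more of its spread than of that of Hlf.

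Dbp (ENSMUSG00000059824, chromosome 7, 45705088 to 45710203, plus strand) was the lowest of the 3 genes. It had 18.4, 29.8 and 27.6 normalised reads in the plate libraries, against 15.4, 9.53 and 6.93 in the scaffold libraries. The groups did not overlap, but the lowest plate value was only 1.19 times the highest scaffold value. Behind these values were 20, 29 and 29 plate reads, and 15 and 9 reads in scaffold replicates 1 and 2. The counting interval of plate replicate 1 was 11.2 to 28.4 and that of scaffold replicate 1 was 8.63 to 25.4, so these libraries could not be told apart at this depth. The ratio of means was 2.38 and the log2 fold change -1.21 (SE 0.350). Its replicate SD was close to counting error, at 1.21 times the counting SD on plates and 1.34 times on the scaffold.

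In GENCODE M21, an annotation of GRCm38, 18.0% of its 2993 exon bases are shared with exons of the antisense gene Sphk2, a sphingosine kinase gene. Whether reads were counted by strand is not stated, so reads of the shared part cannot be assigned. No exon base of Per2 or Hlf was shared with another gene there. Of the 3 genes, Dbp had the smallest log2 fold change and the largest SE. Rescaling the libraries to equal medians moved the median of the whole table up by 0.74, and took Dbp to -0.50, Per2 to -0.69 and Hlf to -0.96. Quantile normalisation took Dbp to -0.47. Under both rescalings the limma call of Dbp ended.

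**Figure D1:**
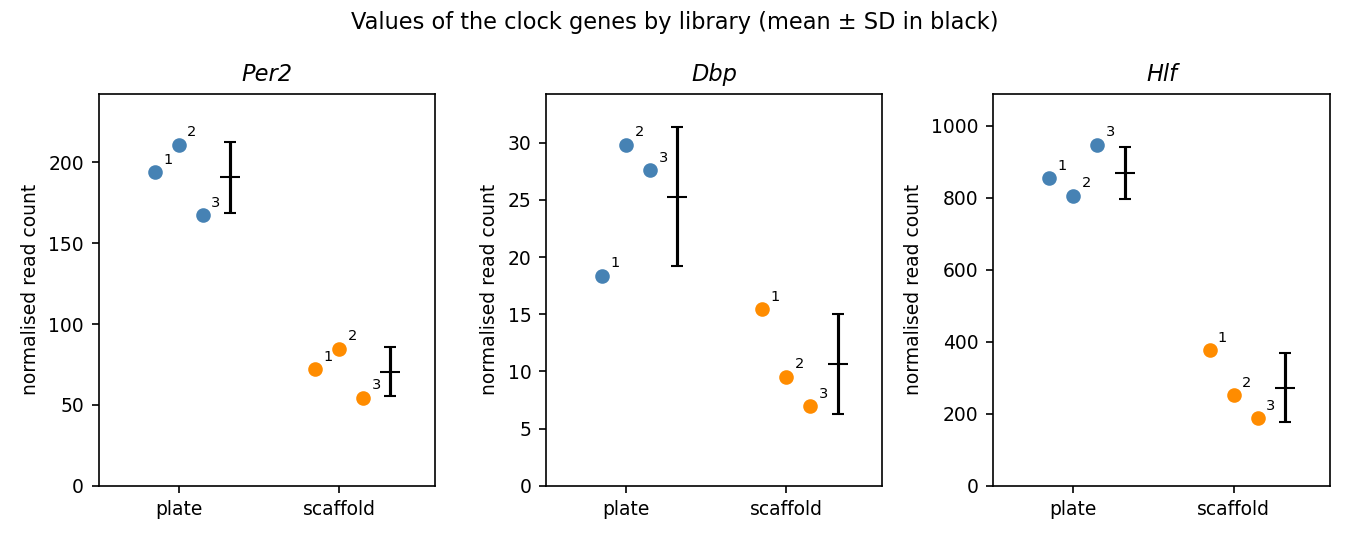
Normalised read counts of Per2, Dbp and Hlf on linear axes that start at 0, with a point per library numbered by replicate and the group mean ± SD in black (n = 3 each). In each panel the scaffold points lie below the plate points; the gap is narrow for Dbp, between 18.4 and 15.4.

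In limma all 3 genes were called at an adjusted p under 0.05 with lower values on the scaffold, as were 67.5% of the table in that direction and 99.7% in either. Likewise the groups did not overlap in 3 of 3, against 66.4% of the table with lower scaffold values and no overlap, and 98.6% in either direction. Since the table holds only genes selected on this contrast, nothing is read from these counts. The smallest absolute log2 ratio of group means in the table was 1.00. Among the 392 lower genes the median log2 fold change was -1.38, and over all 581 it was -1.16. The median of the 3 clock genes was -1.44. Larger decreases than that of Hlf were seen in 27.3% of the lower genes, than that of Per2 in 46.4% and than that of Dbp in 68.1%. The decreases of the 3 genes thus lay in the middle range of the lower genes and not at their extreme.

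**Figure D2:**
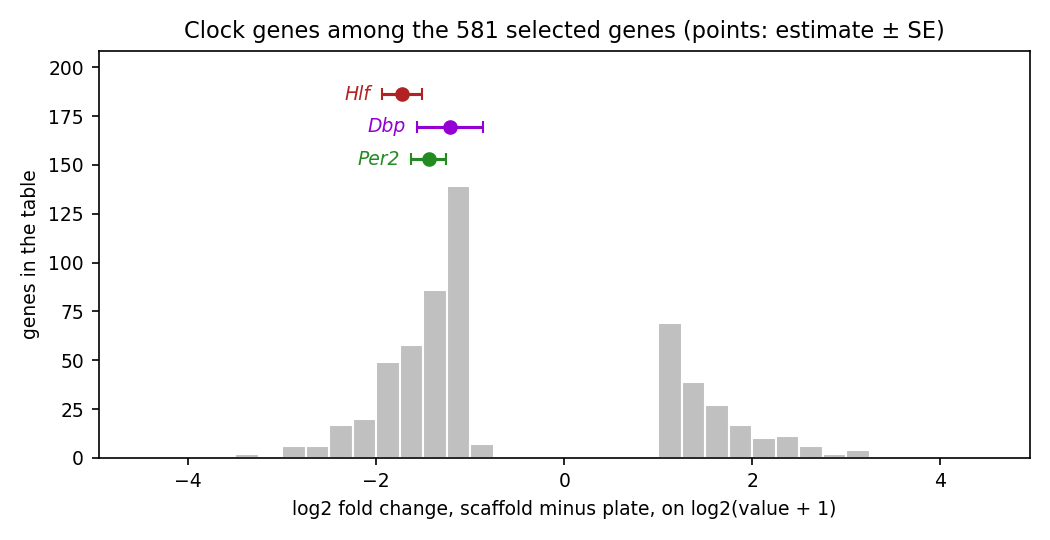
Histogram of the log2 fold change (scaffold minus plate, on log2(value + 1)) of the 581 genes, with the estimates of Per2, Dbp and Hlf ± SE drawn above it. The empty middle comes from the selection of the table, and the 3 genes, at -1.44, -1.21 and -1.73, lie within the bulk of the lower genes.

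Levels were compared between genes after division by the gene length given in the table. On plates, Hlf stood at 130 ± 10.8 normalised reads per kilobase, Per2 at 32.6 ± 3.74 and Dbp at 8.45 ± 2.03. On the scaffold the levels per kilobase were 40.8 ± 14.4, 12.02 ± 2.60 and 3.55 ± 1.45. The order Hlf, Per2, Dbp held on both surfaces, and in each group the levels of neighbours in that order lay further apart than their SDs. Hlf ranked 123 of 581 by level per length over all libraries, Per2 250 and Dbp 434.

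Ratios between the genes within a library do not depend on a size factor per library, although quantile normalisation, which moves genes by their rank, would change them. The ratio of Hlf to Per2 in normalised reads ran 4.40, 3.82 and 5.66 over the plate libraries. Over the scaffold libraries it ran 5.24, 2.98 and 3.45, overlapping the plates. Per2 to Dbp ran 10.6, 7.07 and 6.07 and then 4.67, 8.89 and 7.86, also with overlap. Hlf to Dbp was 46.5, 27.0 and 34.3 on plates. On the scaffold it was 24.5, 26.4 and 27.1, so its highest scaffold value just passed its lowest plate value. All of these ratios differed between the surfaces by less than the larger of the group SDs, except that of Hlf to Dbp, whose means of 35.9 ± 9.82 and 26.0 ± 1.39 differed by slightly more than the plate SD. Both ratios with Dbp rest on its few reads.

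**Figure D3:**
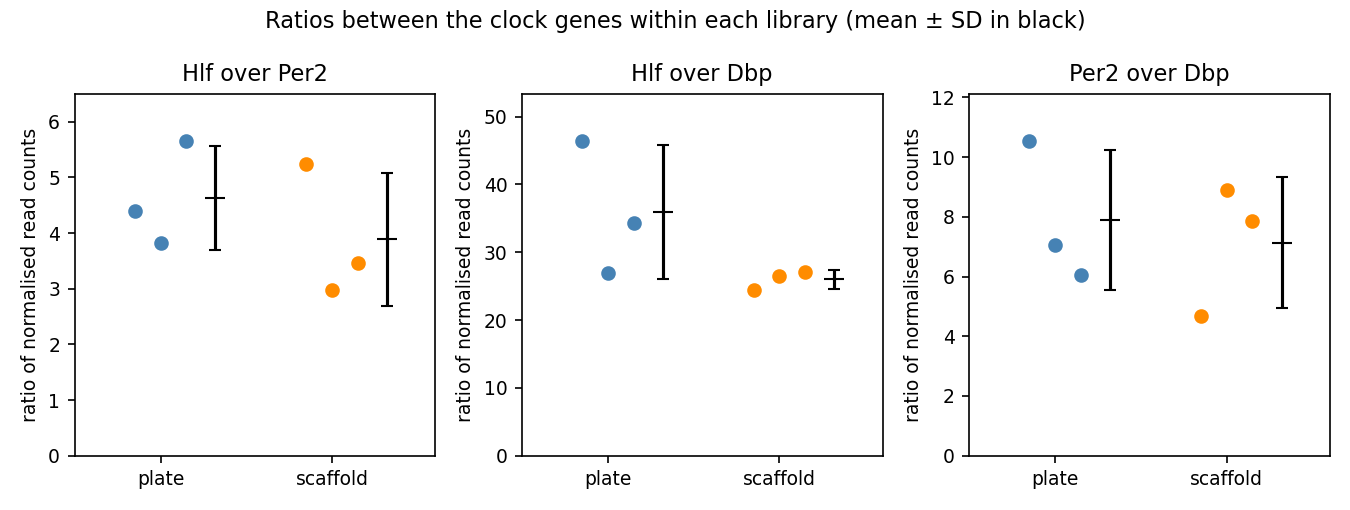
Ratios of normalised read counts between pairs of the clock genes within each library, on axes that start at 0, with group mean ± SD in black (n = 3 each). Plate and scaffold ranges overlap in every panel, and the Hlf to Dbp ratios on the scaffold lie close together, from 24.5 to 27.1.

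Hlf and Dbp were both highest in scaffold replicate 1 and lowest in replicate 3. For Dbp the counting intervals of replicates 1 and 2 overlapped, at 8.63 to 25.4 and 4.36 to 18.1, so the order of these 2 is within counting error. No counting interval was made for replicate 3. Replicate 1 highest with replicate 3 lowest was the order in 34.9% of the 392 lower genes. Replicate 1 was the highest scaffold library in 56.1% of them, and replicate 3 was the lowest in 196 genes. Per2 was highest in replicate 2, though within counting error of replicate 1. It matched 24.0% of the lower genes in that respect and was also lowest in replicate 3.

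Few other clock genes were in the table. Of 76 further symbols listed for the core loop, the PAR bZIP factors and their repressor, modifiers of clock proteins, and rhythmic outputs, 1 was found, and it was higher on the scaffold. Some of these symbols are second names of the same gene. With the 3 clock genes included, 75 of 79 symbols were in the annotation used here. The 19 other symbols of the core loop, among them Clock, Per1, Cry1 and Nr1d1, were not in the table, and neither were the PAR bZIP gene Tef and the D-box repressor gene Nfil3. These genes were not analysed here, and their absence says nothing of their level. The gene found was Rgs16, which encodes a GTPase activator that shortens G protein signalling and is rhythmic in the mouse suprachiasmatic nucleus, the brain's central clock. Rgs16 (chromosome 1, 153740349 to 153745468) had normalised read counts of 846, 810 and 789 in the plate libraries, and of 2619, 2687 and 2939 in those from the scaffold. It was thus 3.37-fold higher on the scaffold, opposite in direction to the 3 clock genes.

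The table itself assigns 29 genes to transcription factor families, of which 8 were higher and 21 lower on the scaffold, where 67.5% of the whole table was lower. Dbp and Hlf made up 2 of its 4 bZIP genes. The other bZIP genes, looked at after their values were seen, were Bach2, a repressor known from lymphocytes, and Fosb, a subunit of the AP-1 factor. Bach2 went from 88.0 ± 13.3 to 24.0 ± 2.19 and Fosb from 60.8 ± 7.65 to 172 ± 19.5. The bZIP genes of the table thus did not share a direction.

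For each clock gene the 5 nearest profiles were sought among the 420 genes with an established symbol, by Euclidean distance of log2(value + 1) centred on each gene's mean over the 6 libraries. All profiles in the table carry the group difference by which it was selected, so likeness in that respect is given by the selection. The lists depend on the measure: ranked by Pearson correlation in place of distance, 0 of the 5 genes were shared for Hlf, 1 for Dbp and 2 for Per2. By distance, Hlf had the closest neighbours. Txnip, which encodes a thioredoxin-binding protein that restrains glucose uptake, lay at a distance of 0.179 and went from 1202 to 390. Next came Azin2, an antizyme inhibitor gene, at 0.262 and Dio2, the deiodinase that activates thyroid hormone, at 0.265. Siglecg and the retinaldehyde dehydrogenase gene Aldh1a1 followed at 0.289 and 0.310.

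Around Per2 lay Nrbp2 at 0.255, Sept12 at 0.287, Tmem53 at 0.303, the hydroxysteroid dehydrogenase gene Akr1c14 at 0.321 and the epoxide hydrolase gene Ephx1 at 0.376. Dbp had more distant neighbours. It had only 9 to 29 reads per library where reads were recovered, and the part of counting error in its distances was not tested. Its neighbours were the actin-binding Ablim1 at 0.451, the vitamin D receptor gene Vdr at 0.487, the sphingosine kinase gene Sphk1 at 0.506, Aipl1 at 0.524 and the aggrecanase gene Adamts5 at 0.526. The clock genes were further from each other than from these neighbours, with distances of 0.800 between Hlf and Per2, 0.825 between Hlf and Dbp and 0.898 between Per2 and Dbp. None of the 3 was thus among the 5 nearest genes of another. The neighbours were picked as the nearest of 420 genes, so nothing is read from this comparison.

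**Figure D4:**
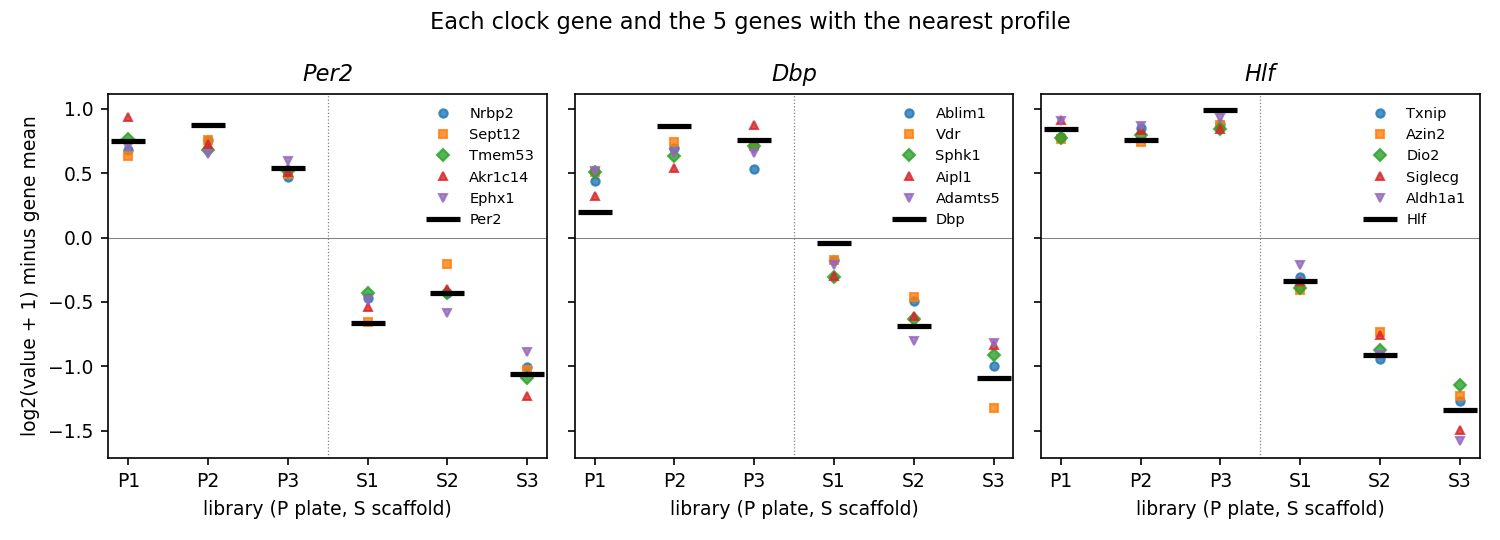
Log2(value + 1) minus the gene's mean over the 6 libraries, for Per2, Dbp and Hlf (black bars) and the 5 genes nearest to each (coloured symbols), by plate (P1 to P3) and scaffold (S1 to S3) library. The symbols lie close to the bars for Hlf, where the nearest gene is at a distance of 0.179. They are more scattered for Dbp, the clock gene with the fewest reads, where the nearest gene is at 0.451.

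Every alternative kept the 3 genes lower on the scaffold, the direction in which they were selected. The size of the difference moved most with the scaling. Under quantile normalisation Hlf stood at -1.81 and Per2 at -0.98.

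**Figure D5:**
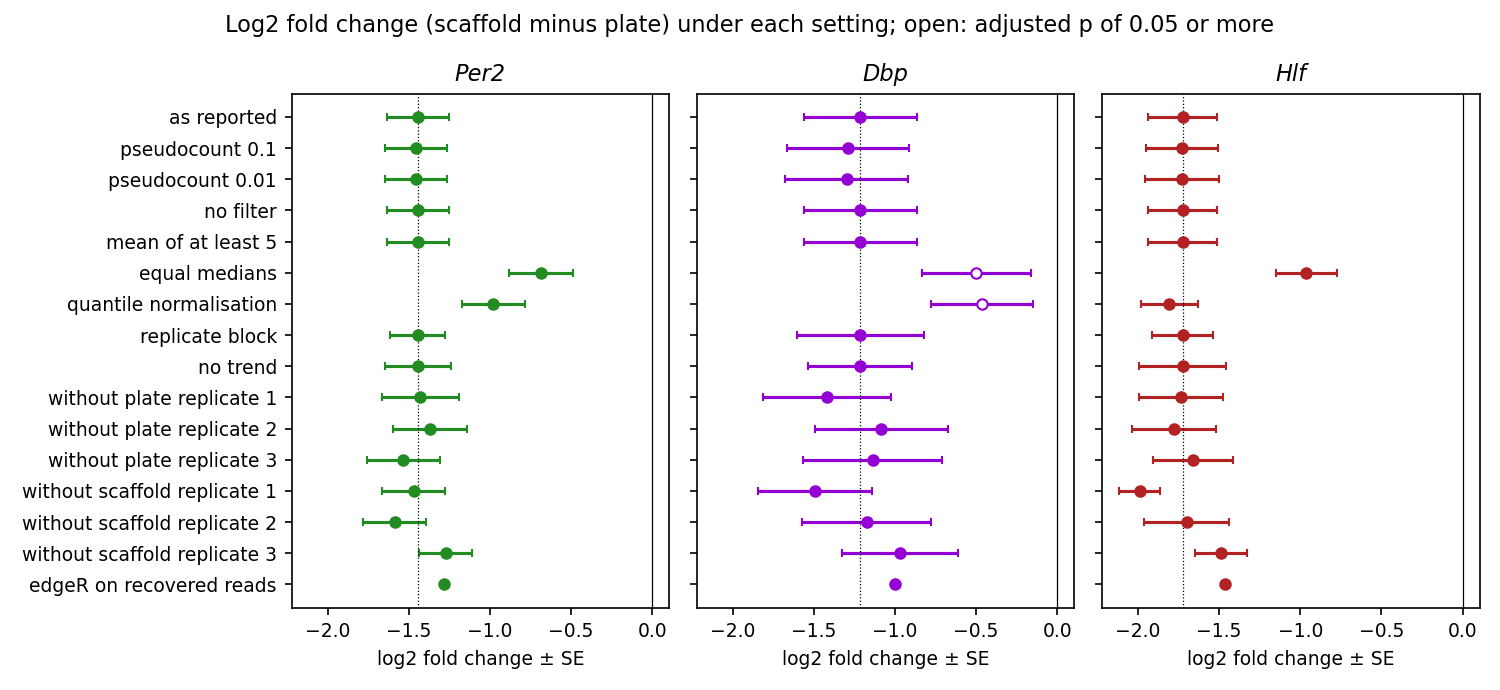
Log2 fold change ± SE (scaffold minus plate) of Per2, Dbp and Hlf as reported (dotted line) and under each alternative; edgeR has no SE, and open points did not pass an adjusted p of 0.05. All points lie below 0, and the open points are those of Dbp at -0.50 and -0.47 under the rescalings.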

How the data were processed

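RNA was sequenced from 6 libraries, grouped and numbered by their labels. The tools named by the submitters' processing notes are DESeq2, fastp, HISAT2 and HTSeq, with the build GRCm39. No role or version is given in the sources used here. What the authors deposited is a signal per gene and library, the read count over a size factor of 0.944 to 1.09, although the tables are named FPKM. In each library 100% of values were whole multiples of a step, within 0.01 read. Reads of scaffold replicate 3, whose step lies close to 1, were not used as counts. The deposited gene length is a column of another kind and was used for levels per kilobase.

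limma 3.58.1 (R 4.3.3) was run on log2(value + 1) over all 581 genes with a mean of at least 0.5, with an intensity trend, two-sided, with Benjamini-Hochberg adjustment and a threshold of 0.05. An exact test of 3 against 3 libraries cannot go below 0.1. The script was tested on simulated data. The genes, lists and tests were chosen with earlier results of these data known. Named genes were the 3 clock genes, list members in the table and the 5 nearest profiles. The table's spans of the 3 genes equal those of GENCODE M21, hence GRCm38 coordinates. Alternatives were pseudocounts, filters, rescalings, a replicate block, no trend, leaving out each library, and edgeR 4.0.16 on recovered reads. Protein sequences were not used here.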

Additional observations from a re-analysis of the deposited data

How the results depend on the processing

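The table was selected on this contrast, so the calls and directions given here are a description and lend the difference no support. Across all alternatives Per2, Dbp and Hlf kept their direction, and all 3 passed the threshold except for Dbp under equal medians (log2 fold change -0.50) and under quantile normalisation (-0.47), where 2 of 3 passed. These rescalings moved the median log2 fold change over the table by 0.74 and 0.63 and so shrank most decreases by construction. Leaving out each library in turn gave -1.49 to -1.99 for Hlf, -1.27 to -1.59 for Per2 and -0.97 to -1.50 for Dbp, with all 3 called each time, and 573 to 579 genes of the table called in place of 579. Both rescalings called 397 genes, of which 52.4% and 52.9% were lower in place of 67.7%; they use only selected genes and cannot test the deposited scaling. edgeR on 5 libraries gave -1.46 for Hlf and -1.28 for Per2, and it called Dbp as lower too. Rgs16 stayed called and higher throughout, at 1.24 to 2.51. With the replicate number as a block, 580 genes were called. The log2 fold changes of the 3 genes were unchanged (-1.44 for Per2), which is fixed in advance because both groups hold the same replicate numbers. Deviations from the group means of libraries that share a number had correlations of -0.029, 0.073 and 0.058. Those of the other pairs of a plate and a scaffold library ran from -0.103 to 0.034. With 3 libraries per group, these values cannot settle whether the numbers pair the samples. With Pearson correlation in place of distance, 2 of the 5 genes nearest to Per2, 1 for Dbp and 0 for Hlf were shared. Depth limits Dbp most, with 9 to 29 reads per library in the 5 libraries with recovered reads.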
